A study of Mus musculus with 6 samples.

Results

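Chromosomes 4 to 9 of Apc Min mouse intestinal organoids were described at the CpG positions that had a methylation level in both of 2 control libraries. Intestinal organoids are self-organising cultures of gut epithelium, and Apc Min is a truncating allele of Apc, a brake on Wnt signalling. Control replicates 1 and 2, the only group described, carried that allele and were grown in organoid medium under low glutamine, and the labels call them biological replicates. The labels give no age, animal or culture, so the spread between them may be technical. The series holds 6 libraries of reduced representation bisulfite sequencing (RRBS), 3 treated with DM-aKG and 3 controls. In the other 4 libraries the values on these chromosomes are taken to sit beside the wrong coordinates, so no treatment comparison was made. Of 366600 table positions on the 6 chromosomes, 209844 (57.2%) had a value in both controls and are called members. A further 29885 had a value in replicate 1 alone, 37516 in replicate 2 alone and 89355 in neither. The whole table has 813850 positions. Its rows up to 390208, where all 6 libraries are in register, hold 303005 positions valued in both controls and are called the rows before the break.

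In RRBS, DNA is usually cut at CCGG, CpG-rich fragments are kept, and bisulfite turns unmethylated cytosines into uracil while methylated cytosines stay. In mammals most CpGs are methylated, whereas the CpG-dense starts of many genes are free of methylation. Imprinted genes are an exception in which 1 parental copy is methylated at a control region. Promoters of a group of germline genes are another, since they are methylated in somatic cells. The levels here cannot show the unmethylated part, because the lowest value listed is 40% and values from 1 to 39 do not occur. A position listed at 0 was under that limit or was not called, and was taken as having no value. No coverage is listed beside the levels, so their depth is unknown and no counting interval is given, and with 2 libraries of 1 group no test was possible. Methylation levels did not allow the organoids to be checked against markers of a cell type.

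Promoter sequences of 6 genes are shown as examples from the imprinted and the germline list. Most of the 240 promoter windows with at least 3 members belong to neither list. The first pair, Snrpn and Mkrn3, lies in the imprinted Prader-Willi region of chromosome 7, and its members had intermediate levels. The other four, Asz1, Fkbp6, Dmrtb1 and Tex101, are germline genes whose CpG-rich starts had high levels. The sequences are RefSeq's for GRCm38.p6, the assembly of mm10, 5′ to 3′ on the minus strand of each gene, from 250 bases before the start to 50 bases after it. Capitals mark the CpGs that held at least 1 member, on either strand.
Snrpn (chr7:60005150-60005449): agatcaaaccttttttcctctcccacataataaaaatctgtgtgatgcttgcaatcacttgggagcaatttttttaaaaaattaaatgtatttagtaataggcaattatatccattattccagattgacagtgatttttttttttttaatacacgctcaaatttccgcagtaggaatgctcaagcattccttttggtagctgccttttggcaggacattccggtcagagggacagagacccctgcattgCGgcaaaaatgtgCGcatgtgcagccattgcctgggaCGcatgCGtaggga
Mkrn3 (chr7:62420104-62420403): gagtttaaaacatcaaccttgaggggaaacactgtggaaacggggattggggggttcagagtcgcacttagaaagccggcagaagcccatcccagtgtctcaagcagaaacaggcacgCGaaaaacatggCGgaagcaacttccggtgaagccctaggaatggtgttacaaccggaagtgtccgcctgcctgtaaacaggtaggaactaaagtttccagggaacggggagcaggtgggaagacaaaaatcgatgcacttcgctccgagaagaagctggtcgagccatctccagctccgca
Asz1 (chr6:18109012-18109311): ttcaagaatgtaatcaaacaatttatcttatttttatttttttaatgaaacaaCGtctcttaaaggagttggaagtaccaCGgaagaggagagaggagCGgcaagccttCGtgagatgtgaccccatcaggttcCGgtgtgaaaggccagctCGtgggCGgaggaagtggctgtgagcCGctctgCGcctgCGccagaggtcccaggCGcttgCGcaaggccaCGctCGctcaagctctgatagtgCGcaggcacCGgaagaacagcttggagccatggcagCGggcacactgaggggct
Fkbp6 (chr5:135349864-135350163): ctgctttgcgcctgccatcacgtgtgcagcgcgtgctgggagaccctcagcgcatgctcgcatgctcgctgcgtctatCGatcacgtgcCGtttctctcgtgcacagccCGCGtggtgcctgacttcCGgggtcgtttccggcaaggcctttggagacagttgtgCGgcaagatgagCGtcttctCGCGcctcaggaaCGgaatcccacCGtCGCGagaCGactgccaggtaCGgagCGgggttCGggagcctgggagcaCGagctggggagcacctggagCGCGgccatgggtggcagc
Dmrtb1 (chr4:107683540-107683839): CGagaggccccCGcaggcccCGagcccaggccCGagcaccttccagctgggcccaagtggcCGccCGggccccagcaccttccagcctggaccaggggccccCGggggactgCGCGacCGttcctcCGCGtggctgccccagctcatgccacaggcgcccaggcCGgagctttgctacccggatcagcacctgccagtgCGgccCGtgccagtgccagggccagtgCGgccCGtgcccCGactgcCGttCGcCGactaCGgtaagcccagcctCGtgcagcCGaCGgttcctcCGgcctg
Tex101 (chr7:24672001-24672300): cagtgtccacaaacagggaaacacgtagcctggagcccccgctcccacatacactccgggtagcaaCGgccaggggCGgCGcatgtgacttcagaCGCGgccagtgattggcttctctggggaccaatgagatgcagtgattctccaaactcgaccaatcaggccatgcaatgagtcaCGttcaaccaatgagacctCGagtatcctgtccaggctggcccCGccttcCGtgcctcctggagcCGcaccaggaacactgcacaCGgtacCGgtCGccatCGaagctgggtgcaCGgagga
In the Snrpn window 4 of 7 CpGs held members, all 4 near the start of the gene, and in the Mkrn3 window 2 of 15 did. In the Asz1 window every one of the 17 CpGs held a member. Fkbp6 had members at 20 of its 32 CpGs, Dmrtb1 at 26 of 28 and Tex101 at 15 of 19.

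Methylation on chromosomes 4 to 9 was high in both controls. The mean level of the members was 86.1% in replicate 1 and 87.1% in replicate 2, or 86.6% ± 0.658 (SD, n = 2). In the same libraries the rows before the break averaged 86.5% ± 0.632 (SD, n = 2), a gap smaller than the spread between the libraries. The gap had the same direction in both, with 86.13% against 86.07% in replicate 1 and 87.06% against 86.96% in replicate 2. By chromosome, the mean of both controls ran between 86.3% on chromosome 9 and 87.1% on chromosome 5. Replicate 1 was the lower library on all 6 chromosomes, with a difference to replicate 2 of -0.701 points on chromosome 8 and -1.22 points on chromosome 6 at the ends. A level of 90% or more was held by 57.2% of members in replicate 1 and by 58.6% in replicate 2. A level of 65% or less was held by 13.9% in replicate 1 and by 11.1% in replicate 2. The share at exactly 100% was 28.4% in replicate 1 and 23.8% in replicate 2. Across members the levels of the libraries had a Pearson correlation of 0.668 and a Spearman correlation of 0.619, against 0.667 and 0.616 in the rows before the break. These correlations are a description, since neighbouring positions share fragments. The 2 levels of a position lay within 10 points in 71.7% of members and 30 or more points apart in 4.35%. Cytosines on opposite strands of 1 CpG correlated at 0.686 in replicate 1 and 0.715 in replicate 2.

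Members close to gene starts were lower than members inside genes. Within 1000 bases of a start, 15547 members averaged 82.7% in replicate 1 and 82.5% in replicate 2, or 82.6% ± 0.159 (SD, n = 2). Inside gene spans, 156427 members averaged 87.0% and 87.8% in the same order, or 87.4% ± 0.616. Outside genes, 37870 members averaged 84.0% in replicate 1 and 85.7% in replicate 2, or 84.9% ± 1.17. The gap of gene starts to gene spans was larger than the difference between the libraries, and it was present in both. In the rows before the break the means were 82.7% near starts and 87.3% in gene spans. The lowest point by distance was at 250 to 500 bases after the start, with 81.2% in replicate 1 and 80.7% in replicate 2. By 5 to 20 kb after the start the level was 87.3% in replicate 1 and 88.0% in replicate 2. Since positions under 40% in either library are no members, the dip is that of members only.

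**Figure D1:**
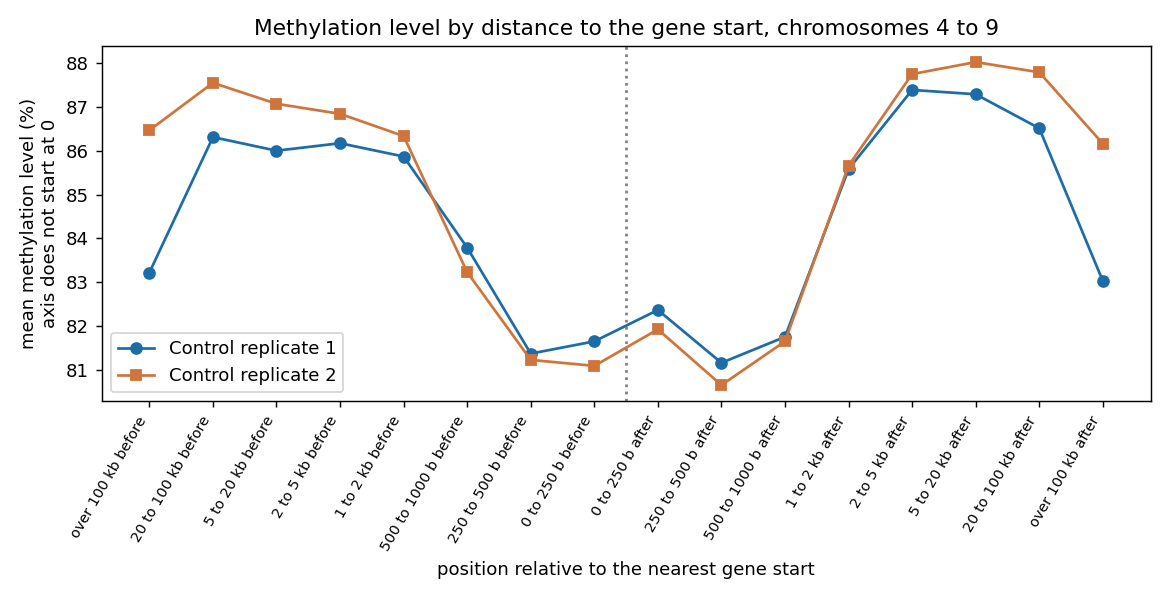
Mean methylation level (vertical axis, percent, not starting at 0) of members on chromosomes 4 to 9 in bins of distance to the nearest gene start (horizontal axis, before and after the start), 1 line for each control library. Both lines dip to between 80.7% and 82.4% within 500 bases of the start, and the difference of replicate 1 minus replicate 2 is -3.24 points at over 100 kb before it.

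The libraries also differed with distance. Near starts replicate 1 was higher by 0.225 points, and at over 100 kb before a start the difference of replicate 1 minus replicate 2 was -3.24 points, with means of 83.2% in replicate 1 and 86.5% in replicate 2 over 2197 members. At over 100 kb after a start the means were 83.0% and 86.2% over 3595 members. Levels also varied with how many table positions lay within 100 bases. Members with 0 to 1 such neighbour averaged 82.1% in replicate 1 and 83.1% in replicate 2. Members with 20 or more averaged 88.6% in replicate 1 and 89.0% in replicate 2. CpG density and the choice of fragments read cannot be told apart here.

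Stretches of intermediate methylation were marked as runs of at least 6 consecutive members, no more than 500 bases apart, each with a mean of both controls of at most 65%. There were 109 such stretches with 857 members, 0.408% of all members and 3.72% of the 23044 members at 65% or less. The count depends on the rule. It was 43 with the strands of each CpG averaged into 1 position, and 40 with a limit of 60% or 249 with 70%. Their levels follow from that rule and are given as a description. They ran over 9 to 1568 bases with a median of 98, and 92 of them overlapped a gene. Of all 209844 members, 156427 lay in gene spans more than 1000 bases from a start, so most members lie in genes too. A midpoint within 1000 bases of a gene start was found in 35 stretches (32.1%), whereas 7.41% of all members lie that close. Chromosomes 4 and 7 held 26 stretches each, chromosome 5 held 23, chromosome 8 held 15, chromosome 6 held 10 and chromosome 9 held 9. The chromosomes also differ in members, with 41452, 42746, 24010, 41185, 32910 and 27541 on chromosomes 4 to 9 in that order. For every 10000 members there were 5.19 stretches on chromosomes 4 to 9 and 6.14 in the rows before the break. Which runs pass the limit depends on the library, since replicate 1 alone gave 146 runs that overlapped 71 of the 109, and replicate 2 alone gave 133 that overlapped 61.

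Imprinted genes held 13 of the 109 stretches (11.9%) and 152 of their 857 members (17.7%). The same genes hold 1194 of all members, or 0.569%. Of the 10 stretches with the most members, 4 were at imprinted genes. The one with most members, chr7:60004580-60005200, lay at the shared start of Snrpn and Snurf, which encode a splicing protein and a small upstream protein from 1 transcript expressed from the paternal copy. Its 26 members averaged 46.5% in replicate 1 and 53.9% in replicate 2, or 50.2% ± 5.22 (SD, n = 2). Single positions ran between 40% and 60% in replicate 1 and between 41% and 80% in replicate 2. Several repeated the same pair of values, 40% in replicate 1 with 60% or 80% in replicate 2, and their depth is unknown. The long non-coding gene Snhg14 overlaps the same bases and cannot be told apart from them. Among the 39 table positions there, 2 were valued in 1 control and 11 in neither, and these are not in the means. This is the start whose sequence is printed above for Snrpn.

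The second, chr6:4747355-4747485, lay in Peg10, a paternally expressed gene derived from a retrotransposon and needed in the placenta. All 23 table positions in its 131 bases were members, with means of 55.1% in replicate 1 and 61.3% in replicate 2. No position there was under 47% or over 71% in either library. The neighbouring gene Sgce, the sarcoglycan paternally expressed beside Peg10, averaged 59.9% in replicate 1 and 65.3% in replicate 2 over 31 members, of which 23 are those of the Peg10 stretch. Its other 8 members averaged 73.6% in replicate 1 and 76.6% in replicate 2. Peg12, a paternally expressed gene of the Prader-Willi region, held the third and the eleventh stretch. The larger, chr7:62463996-62464398, had 20 members at 52.8% in replicate 1 and 48.8% in replicate 2. Of the 54 table positions there, 13 were valued in 1 control and 21 in neither. Over its whole span Peg12 averaged 57.6% in replicate 1 and 57.4% in replicate 2 (52 members), means that lay within 0.231 points. Single members differed in both directions, with replicate 1 higher at 32 and lower at 19.

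Other genes of that region had intermediate stretches too. Mkrn3, a ubiquitin ligase gene that restrains puberty in humans, had 8 members at chr7:62419840-62420285 that averaged 48.8% in replicate 1 and 45.8% in replicate 2. Magel2, a paternally expressed gene of the MAGE family, had 2 neighbouring stretches of 6 members, with 50.7% and 53.8% in replicate 1 and 50.3% and 58.0% in replicate 2. The lncRNA gene Gm32061 overlaps the members of Mkrn3 and Magel2, and they cannot be told apart from it. Ndn, which encodes necdin, had no stretch, and its 11 members averaged 77.3% in replicate 1 and 90.9% in replicate 2. All 11 also lie in or within 1000 bases of another annotated gene. The 1 Mb window that starts at 62000000 on chromosome 7 holds Peg12, Mkrn3, Magel2 and Ndn. It had the lowest mean of the 636 windows with at least 50 members, with 67.3% in replicate 1 and 67.8% in replicate 2.

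Cdkn1c, the maternally expressed inhibitor of cyclin-dependent kinases, held 2 stretches. The first, chr7:143459329-143460123, had 14 members at 50.9% in replicate 1 and 49.9% in replicate 2. It had few positions valued in both libraries, since 32 of its 57 table positions were valued in neither. The second, chr7:143460966-143461175, had 9 members, all at 50% in replicate 1 and at 50% or 75% in replicate 2. Of its 33 table positions 18 were valued in 1 control and 6 in neither. Whether few reads lie behind these equal values was not tested, since no depth is listed. The 51 members of the gene ran between 41% and 100% in both libraries, and 23 of them were at 65% or less. Nap1l5, a paternally expressed gene inside an intron of Herc3, had 8 members at 58.5% in replicate 1 and 58.6% in replicate 2. Its whole span averaged 59.1% in replicate 1 and 64.0% in replicate 2 over 23 members.

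Mest, a paternally expressed gene of the α/β-hydrolase family, differed between the libraries. In the stretch chr6:30735331-30735476 the 8 members averaged 74.4% in replicate 1 and 43.1% in replicate 2, and the ranges of 69% to 81% and 42% to 47% did not overlap. Replicate 1 was the higher library at 10 of the 10 members within 1500 bases. These lie between -109 and 73 bases from the middle of the stretch, and several repeat the same value. Since neighbouring positions share fragments, counts of members by direction, here and at other genes, are not counts of independent observations. A second Mest stretch, chr6:30739254-30739324, had 7 members at 51.1% in replicate 1 and 49.0% in replicate 2. Ano1, a calcium-activated chloride channel gene on the imprinted list, had a stretch at an annotated start that lies inside its span. The 6 members there likewise averaged 72.2% in replicate 1 and 45.2% in replicate 2. The SD between the libraries was 22.1 points in the first Mest stretch and 19.1 points in that of Ano1, against a median of 4.04 points over the 109 stretches. They were the largest of the 109 and are named for that reason.

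**Figure D2:**
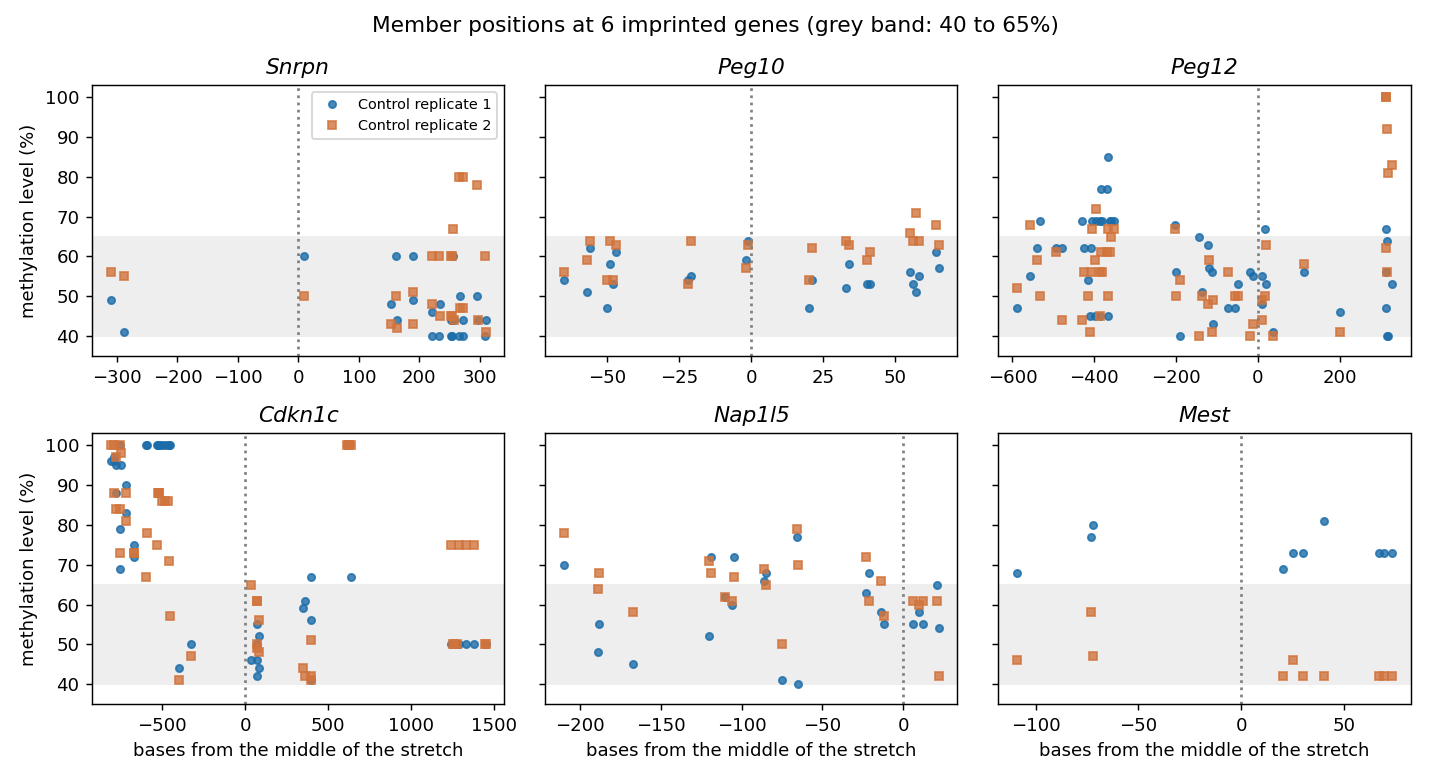
Methylation level (vertical axis, percent) of each member within 1500 bases of the middle of the main stretch (horizontal axis, bases) at 6 imprinted genes, circles for Control replicate 1 and squares for Control replicate 2; the grey band spans 40% to 65%. At Peg10 all 23 members lie between 47% and 71%, at Cdkn1c the members on the left rise to 100%, and at Mest the 10 members lie at 68% to 81% in replicate 1 and at 42% to 58% in replicate 2.

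Not every imprinted gene was intermediate. The list of 53 imprinted genes had 50 on chromosomes 4 to 9, of which 40 had at least 3 members. Their median level was 81.9%, and 5 of the 40 (12.5%) were at 65% or less, against 2.75% of the 6143 genes with a value. Those 5 were Snurf, Peg12, Nap1l5, Sgce and Snrpn, the last at 58.5% in replicate 1 and 68.0% in replicate 2 over 46 members. They are not 5 separate loci, since the 26 members of Snurf are all among those of Snrpn, and 23 of the 31 members of Sgce are those of the Peg10 stretch. The 20 members of Snrpn outside Snurf averaged 74.2% in replicate 1 and 86.3% in replicate 2. With 2000 bases on each side the level of Nap1l5 was 65.4%, above the limit. Igf2, a growth factor gene expressed from the paternal copy, averaged 70.7% in replicate 1 and 60.1% in replicate 2 over 15 members. H19, its maternally expressed non-coding neighbour, averaged 84.2% and 81.2% in the same order over 6. Ascl2, an imprinted transcription factor gene that is also a marker of intestinal stem cells, had 5 members at 80.0% in replicate 1 and 66.6% in replicate 2. The highest of the 40, Kcnq1ot1, a paternally expressed long non-coding RNA inside Kcnq1, averaged 96.8% in replicate 1 and 93.4% in replicate 2 over 36 members. None of its members was under 72%. Peg3, a paternally expressed zinc finger gene, averaged 90.4% in replicate 1 and 91.6% in replicate 2 over 22 members. Rasgrf1, a Ras exchange factor gene, averaged 89.1% in replicate 1 and 85.5% in replicate 2 over 22 members. A gene's level is the mean over its members in its span with 1000 bases on each side. A control region outside that, or without members, is not in the level, and a short one weighs little in a long gene. The 6 members of H19 lie within 98 bases. Whether the control regions of the genes with high levels held members was not tested.

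Most stretches lay at genes that are not on the imprinted list. Cdh15, which encodes the muscle cadherin, had 17 members at chr8:122864818-122865344 with 57.1% in replicate 1 and 50.1% in replicate 2. Dact3, an antagonist of Wnt signalling, had 13 members at chr7:16885275-16885523 with 53.4% in replicate 1 and 49.7% in replicate 2. Of the 46 table positions there, 10 were valued in 1 control and 23 in neither, and these are not in the means. Smaller Dact3 stretches beside it, of 7 and 6 members, averaged 47.7% and 50.7% in replicate 1 and 65.4% and 59.2% in replicate 2. All 157 members of Dact3 averaged 75.2% in replicate 1 and 79.6% in replicate 2. Hopx, a homeodomain gene used as a marker of reserve stem cells in the gut, had 13 members near its start at chr5:77114529-77115034 with 51.3% in replicate 1 and 62.8% in replicate 2. Its stretch had 28 table positions, 11 of them valued in 1 control and 4 in neither. The members of Hopx as a whole averaged 80.5% in replicate 1 and 84.4% in replicate 2, so the stretch was the low end of the gene. Rasip1, an endothelial Ras-interacting protein gene, had 12 members at 54.2% in replicate 1 and 48.0% in replicate 2. Another 14 of its 36 table positions were valued in 1 control and 10 in neither. Lck, a T cell kinase gene, had 10 members at 50.1% in replicate 1 and 59.5% in replicate 2. Loxl1, a lysyl oxidase of elastic fibres, had 11 at 48.7% in replicate 1 and 57.2% in replicate 2. Ajap1, which encodes a junction-associated protein, had the longest stretch, with 11 members spread over 1568 bases at 53.5% in replicate 1 and 54.9% in replicate 2, and 45 of its 77 table positions valued in neither control. Ssbp4, which encodes a single-stranded DNA-binding protein, had 11 members at 50.3% in replicate 1 and 60.7% in replicate 2. Lck is 1 of 5 stretches with 10 members and comes first of them by position alone. The remaining 2 of the 15 stretches with most members overlapped no gene, and lay 35994 bases from the start of Zfp534 and 13842 bases from that of Cibar2.

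Over genes, 6143 of the 12408 protein-coding or lncRNA genes on the 6 chromosomes had at least 3 members, and their median level was 87.7%. Levels of 90% or more were found in 2401 genes (39.1%). Across genes the libraries correlated at 0.828, higher than across single positions, and replicate 1 was lower in 55.4% of genes. Among genes with at least 10 members, Snurf and Peg12 were 2 of the 3 lowest. The other was Crmp1, which encodes a protein of axon guidance, with 56.3% in replicate 1 and 53.0% in replicate 2 over 12 members. Nova2, a neuronal splicing factor gene, averaged 59.5% in replicate 1 and 59.0% in replicate 2 over 11. Gja4, the connexin gene of arterial endothelium, averaged 60.7% and 58.8% over 27 members within 344 bases. Papolb, the testis poly(A) polymerase gene, averaged 58.8% in replicate 1 and 61.5% in replicate 2 over 32. All of these also lie in or within 1000 bases of another gene. Gimap1, a GTPase gene of lymphocytes, averaged 63.5% in replicate 1 and 53.9% in replicate 2, and Zfp783, listed as a lncRNA, 61.4% and 59.2%. At the high end, all 10 members of Zdhhc21, a palmitoyltransferase gene, and all 11 of the lncRNA gene Gm45631 stood at 100% in both libraries. Rint1, a gene of vesicle transport, averaged 99.6% in replicate 1 and 98.8% in replicate 2, and Cln3, a lysosomal membrane protein gene, 98.5% and 99.5%.

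Gut epithelial genes differed by class. Of 34 enterocyte and brush border genes on these chromosomes, 23 had a value, with a median of 92.7%, and 14 of them (60.9%) were at 90% or more, against 39.1% of all genes. Cftr, the chloride channel of crypt secretion, averaged 98.2% in replicate 1 and 97.5% in replicate 2 over 11 members. Cyp3a25, a drug-metabolising cytochrome, averaged 98.5% and 97.5% over 6. Cdh1, the epithelial cadherin, averaged 94.1% in replicate 1 and 94.0% in replicate 2 over 46 members, and none of them was under 68%. The lowest were Klf4, a transcription factor of differentiated epithelium, with 66.6% in replicate 1 and 82.0% in replicate 2 over 9 members, Lgals4, a gut lectin, with 80.0% and 80.7% over 3, and Slc5a11, an inositol transporter, with 81.8% and 81.2% over 12.

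Secretory and tuft cell genes were lower. Of 28 on these chromosomes 10 had a value, with a median of 81.2%, and none was at 90% or more. Muc2, the main mucin of goblet cells, averaged 69.6% in replicate 1 and 79.4% in replicate 2 over 32 members. Muc6, a mucin of gastric glands, averaged 60.8% in replicate 1 and 71.2% in replicate 2 over 4 members, and Alox5ap, a leukotriene synthesis gene of tuft cells, 67.0% and 69.7% over 27. Tas1r3 and Fcgbp, a taste receptor gene and a goblet cell gene, were the highest, at 89.9% and 88.7% in replicate 1 and 88.1% and 89.3% in replicate 2. The 7 stem and crypt genes all had a value, with a median of 87.4%. Msi1, an RNA-binding protein of progenitors, averaged 79.4% in replicate 1 and 77.8% in replicate 2 over 101 members. Ephb2, a receptor that positions cells along the crypt, averaged 91.2% in replicate 1 and 90.2% in replicate 2 over 413 members, and Prom1, which encodes CD133, 93.8% and 99.2% over 5.

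Wnt pathway genes lay near the median of all genes, at 87.2% over 26 of 31, and none was at 65% or less. Rspo1, an R-spondin that raises Wnt signalling, was the lowest, with 63.4% in replicate 1 and 67.5% in replicate 2 over 19 members. It was followed by Draxin, a guidance protein that binds Wnt co-receptors, with 65.5% and 73.2% over 28, and Wnt7a, a ligand, with 71.7% and 75.5% over 26. The antagonist Sfrp1, which binds Wnt ligands, averaged 71.2% in replicate 1 and 77.8% in replicate 2 over 24 members, and the antagonist-family gene Dkk3 averaged 82.3% and 81.5% over 20. The receptor gene Fzd4 and the co-repressor gene Tle1 were the highest, with 95.9% and 96.7% in replicate 1 and 93.5% and 92.6% in replicate 2.

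Genes altered or silenced in colorectal tumours had a median of 87.3% over 29 of 34. Igf2 was the lowest, followed by Tgfb1, the growth factor that restrains epithelial growth, with 71.5% in replicate 1 and 62.9% in replicate 2 over 22 members. Cdkn2b, a cell cycle inhibitor, averaged 82.5% in replicate 1 and 60.2% in replicate 2 over 4 members. Braf, a kinase of the MAPK pathway, averaged 98.2% in replicate 1 and 96.2% in replicate 2 over 4 members. Genes of DNA methylation, glutamine use and α-ketoglutarate had a median of 89.96% over 31 of 37. Tet3, which encodes an enzyme that oxidises 5-methylcytosine, averaged 93.7% in replicate 1 and 93.8% in replicate 2 over 155 members. Kdm4a, a histone demethylase gene, averaged 95.1% and 94.4% over 145, and Slc7a6, an amino acid transporter gene, 96.0% and 96.9% over 8. The lowest were P3h3, a collagen prolyl hydroxylase gene, with 69.8% in replicate 1 and 69.3% in replicate 2 over 21 members, Aldh1l1, a folate enzyme gene, with 79.2% and 64.2% over 4, and Slc7a5, a large neutral amino acid transporter gene, with 77.8% and 74.2% over 8.

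Developmental transcription factors had a value in 23 of 68, whereas 49.5% of all genes had one, and 5 of the 23 (21.7%) were at 65% or less, against 2.75% of all genes. These 5 had 3 to 9 members each, and of the 12 genes with at least 10 members none was at 65% or less, with a list median of 83.7%. Foxd3, a neural crest factor, averaged 54.0% in replicate 1 and 53.3% in replicate 2 over 3 members. Vax2, an eye factor, averaged 64.8% in replicate 1 and 53.8% in replicate 2 over 6, and Emx1, a cortex factor, 62.6% and 60.2% over 8. Isl2, a motor neuron factor, and Dmrta2, a forebrain factor, were the other two. The highest was Mnx1, a pancreas and motor neuron factor, with 96.9% in replicate 1 and 98.4% in replicate 2 over 29 members within 246 bases, ahead of Foxj3, a forkhead factor, at 93.4% and 96.6% over 7. In the Hoxa cluster, which sets position along the body axis, Hoxa2 averaged 90.2% in replicate 1 and 89.8% in replicate 2 over 8 members. Hoxa5 averaged 93.0% in replicate 1 and 77.4% in replicate 2 over 22 members within 390 bases, and replicate 1 was the higher library at 20 of them. Hoxa3 averaged 87.1% in replicate 1 and 81.9% in replicate 2 over 70 members, of which 22 are those of Hoxa5. At the other 48 the means were 84.4% in replicate 1 and 84.0% in replicate 2. Positions under 40% are not in these means, so they do not give the level of the whole gene.

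The lists of markers of other cell types had medians below that of all genes, and their members ranged widely. Fibroblast and smooth muscle genes had a median of 79.1% over 12 of 18, the lowest of the 13 lists, and none was at 90% or more. That rank depends on the library and the rule. In replicate 2 the median was 81.4%, above the secretory (80.4%), imprinted (80.6%) and developmental (80.9%) lists. With at least 10 members a gene it was 79.9%, above the imprinted list at 78.5%. Thy1, a fibroblast surface protein gene, averaged 56.8% in replicate 1 and 76.4% in replicate 2 over 8 members, and was lower in replicate 1 at 7 of them. Col1a2, a collagen gene, averaged 70.4% in replicate 1 and 77.6% in replicate 2 over 5, and Tagln, a smooth muscle gene, 75.6% and 74.7% over 19. Endothelial and neural crest genes had a median of 82.4% over 11 of 12, between Jam3, a junction gene, at 74.4% in replicate 1 and 76.0% in replicate 2, and Kit, a receptor gene, at 85.0% and 89.7%. Immune genes had a median of 82.9% over 23 of 34. Cd3g, a T cell receptor subunit gene, averaged 54.7% in replicate 1 and 50% in replicate 2 over 3 members. At the other end, Tnfrsf18, a receptor gene of regulatory T cells, averaged 98.7% in replicate 1 and 98.3% in replicate 2 over 3, and Coro1a, an actin regulator of leukocytes, 91.2% and 89.2% over 28. Among the 13 immune genes with at least 10 members the median was 86.2%, nearer to that of all genes. Housekeeping genes had a median of 86.5% over 13 of 27, and their lowest were Actb, the β-actin gene, at 69.2% in replicate 1 and 66.8% in replicate 2, and Aldoa, a glycolytic enzyme gene, at 73.8% and 62.4%.

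**Figure D3:**
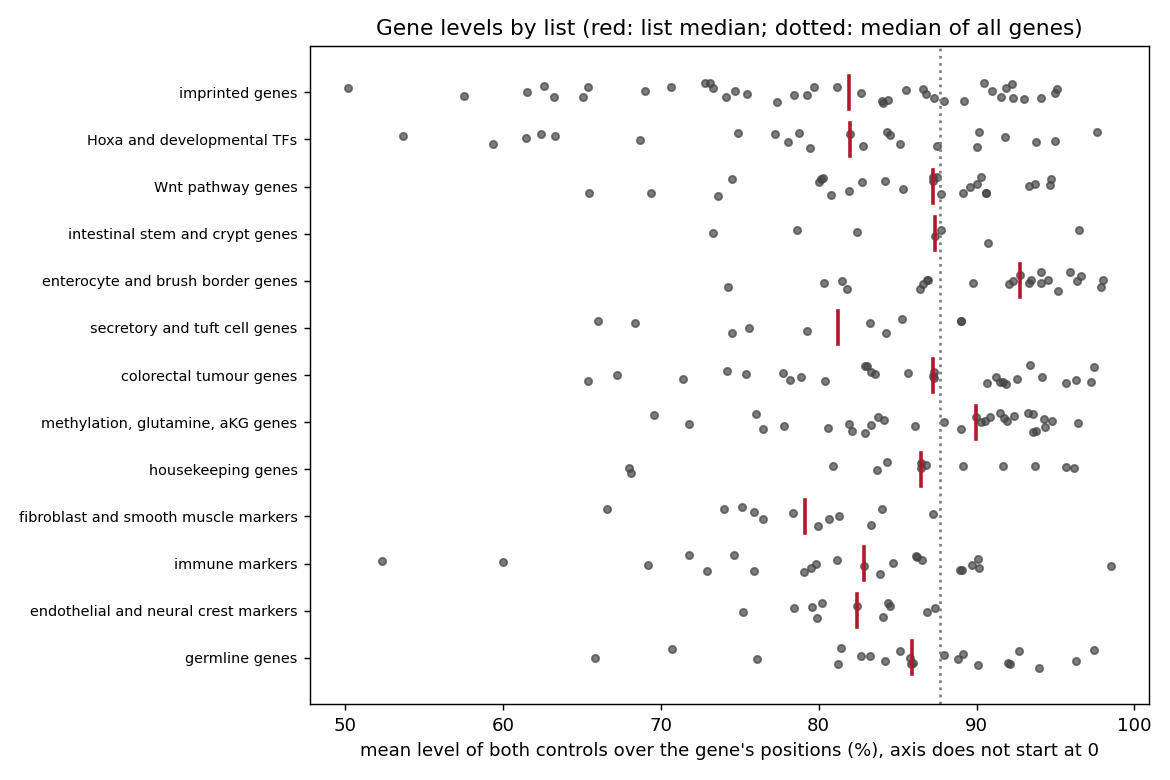
Mean level of both controls (horizontal axis, percent, not starting at 0) of each gene with at least 3 members, 1 point a gene, in 13 gene lists (vertical axis; red line, list median; dotted line, median of all 6143 genes with a value). Enterocyte genes have a median of 92.7% and fibroblast genes 79.1%, against 87.7% for all genes, and points at 65% or less occur in the imprinted, developmental and immune lists.

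Starts of genes were rarely covered by members. Of 9961 genes with a promoter window of 300 bases, 240 (2.41%) held at least 3 members, with a median of 81.9%. A gene with several windows was counted by the 1 window with the most members, here and in the lists and motifs below. That choice favours windows with members, so the shares are not those of windows picked without regard to members. The share depended on CpG number. It was 0.936% for windows with 0 to 5 CpGs, 7.17% with 6 to 9, 5.34% with 10 to 19 and 0.757% with 20 or more. The 20 windows with 20 or more CpGs that did hold members averaged 74.8% in replicate 1 and 66.3% in replicate 2. Whether the other CpG-dense starts were unmethylated or not read cannot be told apart in these files.

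Germline genes had the largest share of such windows among the lists with over 20 windows. Of their 25 windows 7 (28.0%) held at least 3 members, against 2.41% of all, with levels between 84.8% and 98.3% and a median of 89.5%. The 7 were Asz1, Fkbp6, Dmrtb1, Tex101, Tuba3b, Tuba3a and Nlrp5, with 9 to 32 CpGs. Over all genes the share was 7.17% at 6 to 9 CpGs, 5.34% at 10 to 19 and 0.757% at 20 or more. Over whole genes, 22 of 30 germline genes had a value, with a median of 85.9%, below the 87.7% of all genes. Asz1, a gene of the piRNA pathway that silences transposons in germ cells, averaged 97.4% in replicate 1 and 96.6% in replicate 2 over 27 members of the window printed above, and no member was under 67%. Fkbp6, needed for meiotic chromosome pairing, averaged 93.1% in replicate 1 and 90.8% in replicate 2 over 34 members. Tex101, a testis surface protein gene, averaged 88.5% in replicate 1 and 89.4% in replicate 2 over 28. Dmrtb1, a regulator of the switch from mitosis to meiosis in sperm precursors, averaged 81.9% in replicate 1 and 87.7% in replicate 2 over 48. The testis tubulin gene Tuba3b averaged 89.7% in replicate 1 and 89.3% in replicate 2 over 21, and its relative Tuba3a 98.2% in both over 8. Nlrp5, a maternal oocyte gene, averaged 84.0% in replicate 1 and 88.0% in replicate 2 over 9.

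Imprinted genes had 6 of 41 windows (14.6%) with at least 3 members, and these were lower, between 47.7% and 71.1% with a median of 57.5%. Snrpn and Snurf share 1 window, at 44.0% in replicate 1 and 59.6% in replicate 2 over 8 members. Mkrn3 averaged 49.7% in replicate 1 and 45.7% in replicate 2 over 3. Peg12 averaged 52.4% in replicate 1 and 82.0% in replicate 2 over 7, and Igf2 72.8% and 53.5% over 4. With a share of 2.41% over all windows, lists of such sizes are too small for an absence to stand out, and the developmental (0 of 45), enterocyte (0 of 28), secretory and tuft (0 of 20), methylation and α-ketoglutarate (0 of 32), housekeeping (0 of 21) and fibroblast (0 of 11) lists held none.

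**Figure D4:**
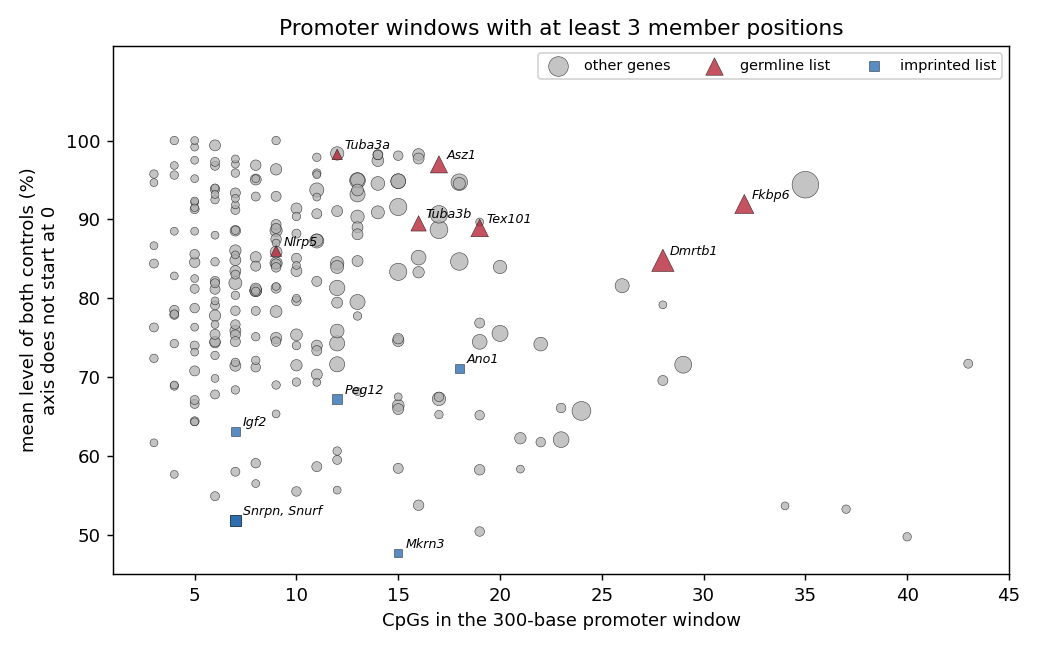
Mean level of both controls (vertical axis, percent, not starting at 0) against the CpGs in the promoter window (horizontal axis) for the 240 genes with at least 3 members there; point size grows with the number of members, triangles are germline genes and squares imprinted genes. The germline windows lie at 84.8% to 98.3% and the imprinted ones at 47.7% to 71.1%.

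Beyond the lists, 38 windows had at least 10 CpGs and at least 15 members, with a median of 86.2% and levels between 62.1% and 98.4%. The most members were in the window of the lncRNA gene Gm13205, with 69 members at 35 CpGs and 94.4% in both libraries. Several others belong to genes known from germ cells. Topaz1, a testis gene needed for meiosis, averaged 95.05% in replicate 1 and 94.8% in replicate 2 over 22 members, and Zglp1, a germ cell transcription factor gene, 90.03% and 87.3% over 29. Rbmxl2, a testis RNA-binding protein gene, averaged 76.7% in replicate 1 and 66.5% in replicate 2 over 26, and Papolb 60.9% and 63.3% over 22. Others are not germline genes, such as Sox6, a transcription factor gene with several starts, at 96.4% in replicate 1 and 89.9% in replicate 2 over 20 members, and Taf1c, a subunit of the RNA polymerase I factor, at 98.6% and 98.1% over 15. These windows and genes were picked after their values were seen. The letters CACGTG, the E-box form bound by factors such as MYC and MAX, occurred on either strand in 8 of the 38 windows (21.1%), in 10.9% of all windows with at least 10 CpGs and in 7.03% of all 9961. The Fkbp6 window printed above holds it 2 times. The letters TGCCGC occurred in 6 of the 38 (15.8%), in 22.6% of windows with at least 10 CpGs and in 11.8% of all. The RRBS cut site CCGG occurred in all 38, in 88.9% of windows with at least 10 CpGs and in 53.6% of all. TGCCGC can share end letters with CACGTG and with CCGG, and a match is a description of the sequence alone.

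The libraries differed most in windows with few genes. Over 636 windows of 1 Mb with at least 50 members, replicate 1 was lower in 494 (77.7%). The mean difference of replicate 1 minus replicate 2 was -2.46 points in the 75 windows with 0 to 2 protein-coding genes, -1.61 in 290 with 3 to 10, -1.12 in 167 with 11 to 20 and -0.791 in 104 with 21 or more. The largest was in the window that starts at 28000000 on chromosome 9, with 69.5% in replicate 1 and 81.5% in replicate 2 over 51 members. It lies in Opcml, a gene for a neuronal adhesion protein that is often silenced in tumours, whose 62 members averaged 69.7% in replicate 1 and 81.1% in replicate 2 and were lower in replicate 1 at 42. The next window holds Ntm, a related adhesion gene, at 71.3% in replicate 1 and 76.9% in replicate 2 over 118 members. Cdh13, another large adhesion gene, on chromosome 8, averaged 77.5% in replicate 1 and 83.3% in replicate 2 over 464 members. The highest windows were on chromosome 8, from 44000000, with 96.6% in replicate 1 and 95.2% in replicate 2, and on chromosome 6, from 18000000, with 95.4% and 95.3%. The second of these holds Asz1, whose 71 members averaged 96.9% in replicate 1 and 95.7% in replicate 2 over the whole gene.

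**Figure D5:**
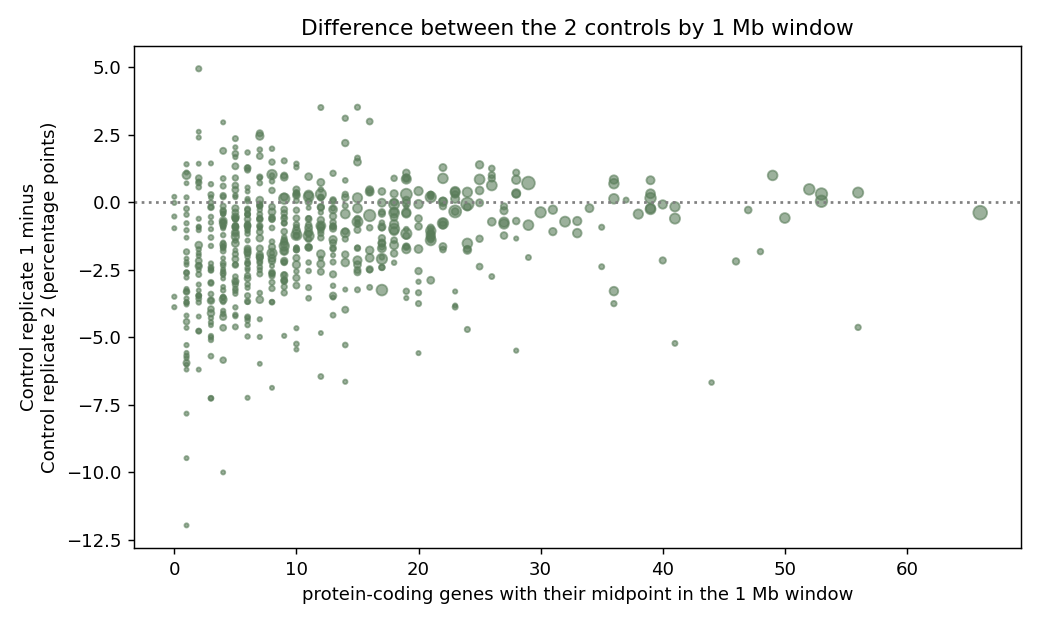
Difference in mean level, Control replicate 1 minus Control replicate 2 (vertical axis, percentage points), against the number of protein-coding genes (horizontal axis) in 636 windows of 1 Mb on chromosomes 4 to 9; point size grows with the number of members. The points below the dotted zero line are 494 of 636, and the lowest, at -11.96 points, has 1 gene.

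Single genes differed by more than the windows. Espn, which encodes the actin bundler espin of brush borders and hair cells, averaged 71.5% in replicate 1 and 92.1% in replicate 2 over 139 members. Most of that lay in chr4:152125123-152126901, where 98 members averaged 69.4% in replicate 1 and 95.8% in replicate 2 and replicate 1 was lower at 89. At the other 41 members of Espn the means were 76.4% in replicate 1 and 83.2% in replicate 2. Sod3, the extracellular superoxide dismutase gene, averaged 59.8% in replicate 1 and 81.0% in replicate 2 over 28 members and was lower in replicate 1 at 25. In the other direction, Nradd, a gene related to neurotrophin receptors, averaged 85.4% in replicate 1 and 61.0% in replicate 2 over 21 members. All of these also lie in or within 1000 bases of another gene. Acta1, the skeletal muscle actin gene, averaged 80.7% in replicate 1 and 59.4% in replicate 2 over 14, and Sema7a, a semaphorin gene, 90.4% and 69.4% over 19. Cdv3 averaged 81.9% in replicate 1 and 61.1% in replicate 2 over 23 members. These genes were picked for their difference, so it is a description, and read depth was not available to set beside it. Their members are not independent, since neighbouring positions share fragments.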

How the data were processed

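Methylation was measured by RRBS in 6 libraries, of which Control replicates 1 and 2 were used. Per the submitters' processing notes, CASAVA 1.8 and Novoalign 3.08.02 were used with build mm10. What each did, and which methylation caller was used, is not given in the sources used here. Each value of the deposited table is a percent of methylation per cytosine, rounded to whole numbers, with no coverage. Its start column counts from 1, since all 2216 members in RefSeq promoter windows then fall on a CpG, against 57.9% if counted from 0.

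Members are positions on chromosomes 4 to 9 after row 390208 with a value other than 0 in both controls. Means were taken in each library and are given as mean ± SD over both, with Python 3.11.15, numpy 2.4.6 and pandas 2.3.3, and no test was run. Gene starts came from the RefSeq promoter table for 9961 genes, and both span ends were used for the other 2447, whose strand was not given. The annotation used gives no exons or UTRs. Gene values cover the span and 1000 bases on each side with at least 3 members. The genes named are the 3 lowest and 2 highest of each list, all imprinted genes, the extremes among genes with at least 10 members, the 15 stretches with most members, and a set of fixed genes, and some are summarised or not reported here. The members and lists were chosen with earlier results of these data known. Promoter windows, motifs, gene families, miRNA hairpins and windows by gene number were added after values were seen. The scripts were tested on simulated data.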

Additional observations from a re-analysis of the deposited data

How the results depend on the processing

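No paired analysis was possible because only 1 group was used. Alternatives were set against the spread between the libraries. Leaving out 1 library always shifts a mean by less than that spread, so that setting could not show a change in a mean. Most values moved where a 0 in 1 control was counted as a level of 0, which lowers by construction. The mean level was then 76.1%, the chromosomes 4 to 9 stood at 75.8%, 76.6%, 75.6%, 76.3%, 76.3% and 75.6%, gene starts at 68.0%, gene spans at 77.4% and the rest at 74.4%, the share at 65% or less was 24.2% and that at 90% or more 52.2%, the median gene 75.8% and the stretches 2105. The list medians, in the order of the plot of gene levels by list, were 70.6%, 43.2%, 74.7%, 74.0%, 80.1%, 63.1%, 73.0%, 78.3%, 71.6%, 68.2%, 71.6%, 73.4% and 77.4%. With opposite strands averaged into 1 position, the mean level was 85.9%, chromosomes 5, 7, 8 and 9 stood at 86.4%, 85.7%, 86.1% and 85.6%, gene starts at 81.4%, gene spans at 86.8%, the share at 90% or more at 56.1% and the median gene at 87.3%, and 43 stretches were left since each needs 6 positions. The list medians that moved were imprinted 79.7%, Wnt 86.0%, enterocyte 92.3%, colorectal 85.3%, methylation 88.7%, endothelial 83.3% and germline 84.9%.

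Gene starts averaged 82.0% within 500 bases and 84.2% within 2000. The stretches numbered 40 at a limit of 60%, 249 at 70%, 568 with at least 4 members and 19 with at least 10. The median gene was 88.1% with at least 10 members, and also 88.1% without the flanks. With at least 10 members a gene, list medians were imprinted 78.5%, developmental 83.7%, enterocyte 92.4%, secretory 79.9%, colorectal 83.6%, methylation 90.1%, immune 86.2% and endothelial 84.2%. Leaving out 1 library gave a median gene of 87.8% to 88.0% and list medians of 80.6% to 81.8% (imprinted), 79.6% to 80.9% (developmental), 85.8% to 87.3% (Wnt), 85.0% to 86.9% (stem), 92.9% to 93.3% (enterocyte), 80.4% to 81.4% (secretory), 85.5% to 86.4% (colorectal), 89.4% to 89.5% (methylation), 81.5% to 82.9% (immune), 82.4% to 83.4% (endothelial) and 86.7% to 87.7% (germline). The fibroblast list ran from 77.5% to 81.4% and the housekeeping list from 85.3% to 88.3%, with a wide spread between the libraries. A median over genes of both libraries need not lie between those of each library. The depth behind each level is unknown and its effect was not tested.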

Other observations

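Gene families named by their symbols differed in how many members were covered. Of 203 genes named Zfp, zinc finger genes, many of which encode DNA-binding repressors, 127 had a value on chromosomes 4 to 9, with a median of 91.9%, against 87.7% for all genes. Of 426 olfactory receptor genes 18 had a value (4.23%), with a median of 79.1%, and of 253 vomeronasal receptor genes 22 did (8.70%), with a median of 83.7%. Solute carrier genes had a value in 95 of 116, with a median of 87.2%. Protein-coding genes had a value in 4835 of 7995 with a median of 88.3%, and lncRNA genes in 1308 of 4413 with a median of 85.5%. Many of these genes overlap others and share positions.

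Of 314 annotated miRNA hairpins, 16 held a member and 7 held 4 or more. Mir26a-1 had 10 members that averaged 97.8% in replicate 1 and 92.4% in replicate 2. Mir25, of the miR-106b cluster inside Mcm7, had 7 at 80.1% in replicate 1 and 89.7% in replicate 2. Mir671 had 4 at 97.8% in replicate 1 and 95.3% in replicate 2. Mir702 had 10 at 87% in replicate 1 and 90% in replicate 2, and Gm51294, listed as a hairpin, had 5 at 98.2% and 99.6%. The lowest were Mir8117, with 7 at 72.9% in replicate 1 and 75.1% in replicate 2, and Mir7023, with 4 at 68% and 74%.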
